A study of Mus musculus with 15 samples.

Results

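The data described here are the liver of mice returned to free feeding after dietary restriction (DR), set against the liver of mice still under DR. The 2 libraries, labelled DR-AL and DR, were selected by their labels from the 15 RNA-seq libraries of the series, which cover 5 tissues and 3 diets. All were from male C57BL/6 mice. The ad libitum (AL) group ate freely and was 5 months old. The DR group ate 60% of the AL intake, a 40% restriction, for 1 month from 4 months of age and was also 5 months old. The DR-AL group had the same month of DR and then 2 months of AL feeding, and was 7 months old. Each library was made from the pooled RNA of 5 mice, so there was 1 library for each diet and no replicate check. Diet and the 2 months of age between the DR and DR-AL mice cannot be told apart. The AL liver library was used as a reference level, and because AL was 5 months old, a level in DR-AL that differs from AL carries the same difference in age.

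The liver switches between storing and releasing fuel. In the fed state insulin and the transcription factors SREBP-1c and ChREBP raise glycolysis and fatty acid synthesis, and SREBP-2 raises cholesterol synthesis when cell sterols are low. During fasting PPARα drives fatty acid oxidation and ketone production. Meal times set the phase of the liver clock, and the pattern of growth hormone pulses sets many liver genes that differ between males and females.

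The liver libraries held 21830731 counts in DR, 24562870 in DR-AL and 24798591 in AL, and from 0.258% to 0.292% of these lay on loci without a gene name and were left out. Of 23589 named loci, 17407 had at least 1 count in the liver and were tested. Values are given as CPM, counts scaled to a total of 1000000 on named loci, or as counts where so named. Values named as counts are not scaled, and the DR library had the lowest total. The log2 fold changes were calculated on scaled counts plus 0.5. Brackets hold the 95% exact interval, which covers counting error only. Hepatocyte markers were abundant in all 3 libraries, with a summed level of 56879 CPM in DR, 47690.4 in DR-AL and 45031 in AL over the 8 markers with counts, although Alb, the albumin gene, was listed at 0 in all 3. The summed level of 6 skeletal muscle markers was 165 CPM in DR, 225 in DR-AL and 26.9 in AL, and their part in the results was not tested. The nuclear RNA Malat1 was also uneven, with 726 CPM in DR, 68.0 in DR-AL and 179 in AL, while Neat1, another nuclear RNA, had 134 CPM in DR, 155 in DR-AL and 131 in AL. Scd1, the stearoyl-CoA desaturase, had 0 counts in the DR liver, 81564 in DR-AL and 106055 in AL. It was at 0 in the DR library of every tissue, with 1252 to 756056 counts in every other library, and it was the 1 gene with such a pattern, so it was treated as not measured under DR and left out. In bulk liver, fewer cells of a type and less RNA per cell cannot be told apart.

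A gene was called higher or lower when a Z test of the 2 libraries passed a Benjamini-Hochberg threshold of 0.05 and the fold passed the minimum given with the methods. The test compares libraries, not diets. Between DR and DR-AL, 2971 genes were higher in DR-AL, 17.1% of those tested, and 4140 were lower, 23.8%. Under edgeR's exact test the 2 libraries gave 3953 calls with an assumed coefficient of variation of 0.1 between pools, and 158 when the dispersion was estimated over the 3 liver libraries regardless of diet. With a fold of at least 2 the numbers were 949 higher, 5.45%, and 1640 lower, 9.42%. The median log2 fold change over all genes tested was -0.11, and 41.8% of the called genes were higher in DR-AL. DESeq2 size factors and TMM factors each raised the log2 fold changes by 0.10, after which 51.1% and 51.0% of the called genes were higher, and a smaller median difference in a list than this shift is not given a direction here. By comparison 3101 genes were higher in DR than in AL, 17.8%, and 1772 were lower, 10.2%, a split of 63.6% higher that became 50.6% with DESeq2 size factors and 50.1% with TMM factors. DR-AL and AL differed at 2611 genes in the higher direction, 15.0%, and 2770 in the lower, 15.9%. Over the 12822 genes whose mean reached 10 counts the median absolute log2 fold change was 0.43 between DR-AL and DR, 0.29 between DR and AL and 0.32 between DR-AL and AL. By this measure the DR-AL library stood farther from DR than DR stood from AL.

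Most of the genes called between DR and AL changed back in DR-AL by the same rule. Of the 3101 genes higher in DR, 2073 were lower again in DR-AL, 66.8%. Of these, 1305 were no longer called against AL, 715 had gone below AL and 53 remained above it. A further 905 were not called between DR and DR-AL, and 123 were higher still. Of the 1772 genes lower in DR, 1130 were higher again, 63.8%, with 734 no longer called against AL, 340 above it and 56 still below. With a fold of at least 2 the genes that changed back were 766 of 1454. Under the exact test with a coefficient of variation of 0.1 they were 1077 of 1528. With the estimated dispersion, which counts differences between diets as spread, they were 33 of 73, so most were not called back. A missing call in that setting does not show that a gene kept its level. These classes share the DR library, so any deviation of that 1 library appears as a change that is then reversed. Other genes differed between DR and DR-AL without a call between DR and AL. They were 1718 of the 2971 higher genes, 57.8%, and 2023 of the 4140 lower genes, 48.9%. Of all 17407 genes tested, 12534 had no call between DR and AL, a larger share.

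**Figure D1:**
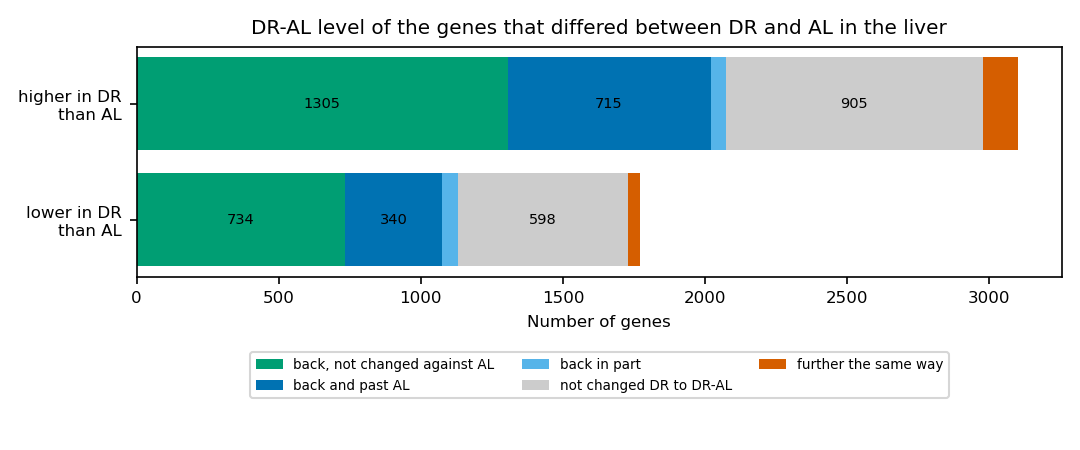
Number of genes (horizontal axis) that were higher or lower in the DR liver than in the AL liver, divided by their level in DR-AL. The largest class in each bar, 1305 and 734 genes, changed back and was no longer called against AL.

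Across the lists plotted here, which leave out cell type markers and major urinary proteins, the medians of DR-AL against DR ran from -2.27 for cholesterol synthesis to 0.87 for fatty acid oxidation. The plot of list medians sets the 3 comparisons side by side, and each pair of comparisons shares a library.

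**Figure D2:**
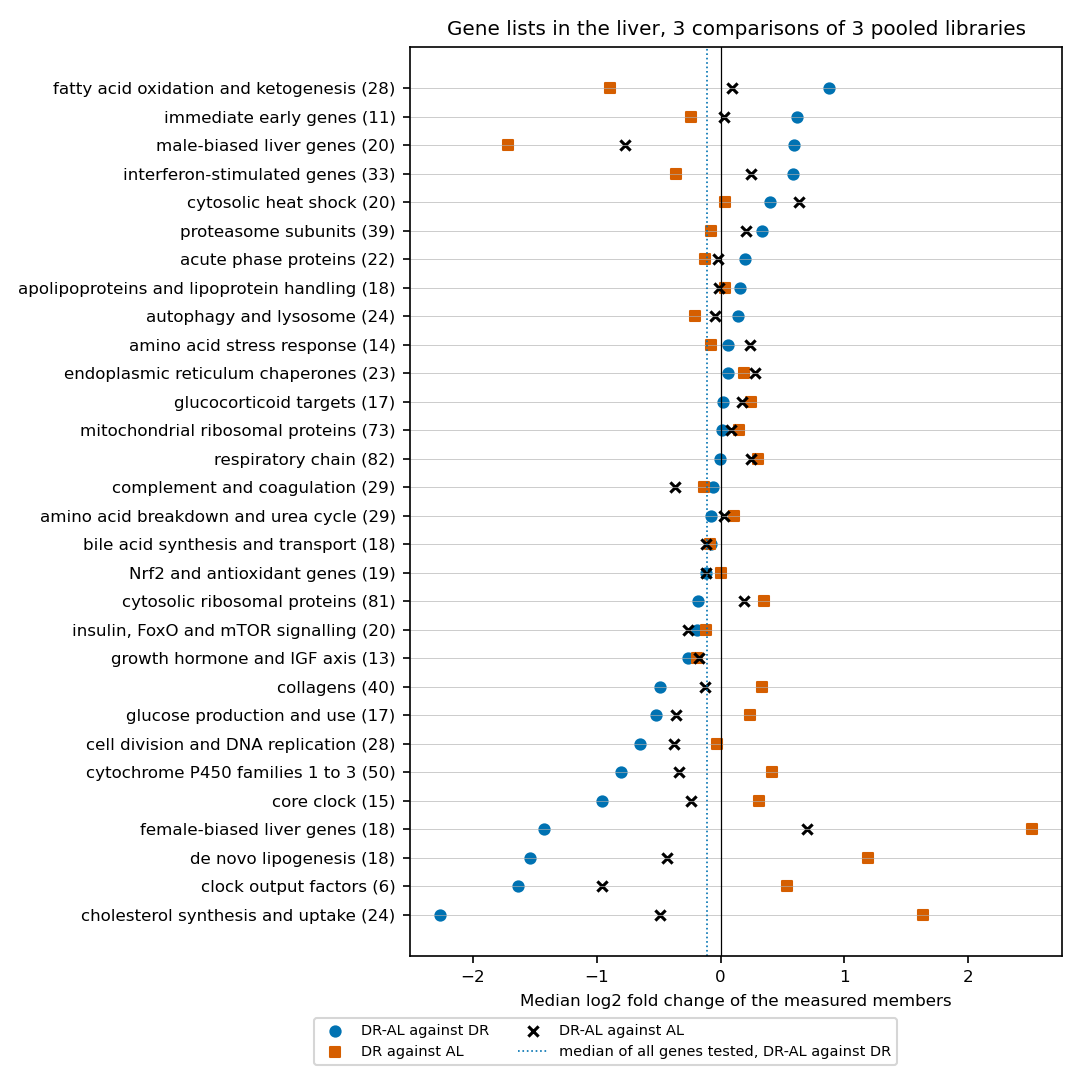
Median log2 fold change (horizontal axis) of the measured members of each list (number in brackets) for DR-AL against DR (circles), DR against AL (squares) and DR-AL against AL (crosses). Cholesterol synthesis has the lowest median in DR-AL against DR at -2.27, and the dotted line marks the median of all genes tested, -0.11.

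Cholesterol synthesis and uptake had the lowest median of the lists. Of 24 members with counts, 23 were lower in DR-AL than in DR, none was higher and 1, Hsd17b7, was not called, beside 23.8% of all genes tested called lower. 22 of the 24 had been higher in DR than in AL, beside 17.8% of all genes tested. Hmgcs1, an early enzyme of the route, was listed at 0 in all 3 libraries. Fdps, which makes farnesyl diphosphate, had 343 CPM in DR, 20.5 in DR-AL and 44.5 in AL and was 16.7-fold lower in DR-AL (log2 fold change -4.06 (-4.20 to -3.93)). DR was the high library for Fdps, and DR-AL was also below AL. Mvd, the mevalonate decarboxylase, had 34.9 CPM in DR, 2.46 in DR-AL and 5.16 in AL, and Nsdhl, which removes methyl groups from sterol intermediates, had 141 CPM in DR, 10.2 in DR-AL and 23.4 in AL. Sqle, the squalene epoxidase, had 105 CPM in DR, 9.38 in DR-AL and 16.4 in AL. Msmo1, Mvk and Lss, enzymes of the same route, had log2 fold changes of -2.69, -2.54 and -2.48. The regulator Srebf2, encoding SREBP-2, had 60.3 CPM in DR, 33.3 in DR-AL and 43.9 in AL. It was called lower, by a log2 fold change of -0.85 that was smaller than the list median. The list median was 1.63 in DR against AL and -0.49 in DR-AL against AL. In DR-AL against AL 16 members were called lower, beside 15.9% of all genes tested.

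The promoters of Mvd and Nsdhl are shown because they belong to this list and had its largest changes among members held by the RefSeq promoter table (GRCm38.p6). Each window holds 250 bases before and 50 after the gene start, read on the strand of the gene, at chr8:122443373-122443672 on the minus strand for Mvd and chrX:72918271-72918570 on the plus strand for Nsdhl. Capitals mark the CCAAT box, the letters CCAAT or, on the other strand, ATTGG.
Mvd: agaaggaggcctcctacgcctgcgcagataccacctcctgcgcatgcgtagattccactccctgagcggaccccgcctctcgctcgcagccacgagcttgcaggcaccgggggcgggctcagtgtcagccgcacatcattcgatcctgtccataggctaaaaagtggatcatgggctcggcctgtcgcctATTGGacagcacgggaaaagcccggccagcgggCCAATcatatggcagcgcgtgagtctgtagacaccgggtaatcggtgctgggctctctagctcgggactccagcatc
Nsdhl: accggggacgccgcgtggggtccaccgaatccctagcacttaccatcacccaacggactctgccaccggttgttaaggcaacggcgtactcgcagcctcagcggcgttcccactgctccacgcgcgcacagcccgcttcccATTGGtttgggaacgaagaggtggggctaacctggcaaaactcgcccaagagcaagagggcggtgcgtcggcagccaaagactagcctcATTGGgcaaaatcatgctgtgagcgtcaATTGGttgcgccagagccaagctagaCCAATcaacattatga
The Mvd window held 1 CCAAT box on each strand, and the Nsdhl window 1 on its own strand and 3 on the other. A CCAAT box was found in 16 of the 17 list members with a promoter in the table, 94.1%, and in 41.1% of all 27025 genes in the table. The letters CACCCCAC, a core of the sterol regulatory element, were found on either strand in 2 of the 17, 11.8%, and in 3.30% of all genes. CACGTG, the E-box, was found in 4 of the 17 genes, 23.5%, against 8.09% of all. These matches describe letters in a window and are not binding sites.

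Fatty acid synthesis followed the same course. How long before killing the mice last ate is not given in the sources used here. Its part in the cholesterol, fatty acid and glucose lists was not tested. In the de novo lipogenesis list, 16 of 18 members were lower in DR-AL than in DR and 2 were higher, beside 23.8% and 17.1% of all genes tested, with a median of -1.54, compared with 1.19 in DR against AL. Thrsp (Spot 14), an activator of lipogenesis, had 475 CPM in DR, 11.5 in DR-AL and 51.5 in AL, 41.5-fold lower in DR-AL (log2 fold change -5.37 (-5.55 to -5.20)). Fasn, the fatty acid synthase, had 564 CPM in DR, 32.5 in DR-AL and 79.3 in AL, a log2 fold change of -4.12 (-4.22 to -4.01). Srebf1, encoding SREBP-1c, had 260.0 CPM in DR, 18.6 in DR-AL and 63.1 in AL. In all 3 genes DR-AL was also below AL, at 22.3%, 41.0% and 29.5% of AL. Mlxipl, encoding ChREBP, had 399 CPM in DR, 64.6 in DR-AL and 146 in AL. Mid1ip1, a partner of Thrsp, Acss2, which makes acetyl-CoA from acetate, and Acaca, the acetyl-CoA carboxylase, had log2 fold changes of -3.20, -2.48 and -1.91. Pnpla3, a lipid droplet protein, had few reads, with 31 counts in DR, 3 in DR-AL and 0 in AL. The 2 members that were higher in DR-AL were Elovl5, which lengthens polyunsaturated fatty acids, with 332 CPM in DR, 1236 in DR-AL and 422 in AL, and Gpam, the first enzyme of glycerolipid synthesis, with 165 CPM in DR, 235 in DR-AL and 154 in AL. Lpin1, a phosphatidate phosphatase of the glucocorticoid list, moved with the lipogenic genes at 483 CPM in DR, 80.5 in DR-AL and 137 in AL.

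Several genes of glucose use fell, while G6pc and Fbp1, which release glucose, rose. Pklr, the liver pyruvate kinase, had 233 CPM in DR, 33.5 in DR-AL and 88.6 in AL. Khk, the ketohexokinase, and Slc2a2, the GLUT2 transporter, had log2 fold changes of -1.37 and -1.11. In the opposite direction, G6pc, the glucose-6-phosphatase, had 137 CPM in DR, 370.5 in DR-AL and 401 in AL, and Fbp1, the fructose bisphosphatase, had 805 CPM in DR, 1363 in DR-AL and 1266 in AL. Pck1, the other classic gluconeogenic enzyme, did not follow them, with 3128 CPM in DR, 2459 in DR-AL and 4153 in AL, lower in DR than AL and lower again in DR-AL, a call that was lost with DESeq2 size factors, where its log2 fold change was -0.24 in place of -0.35. Over the 17 members, 11 were lower, 2 higher and 4 not called, beside 23.8% lower and 17.1% higher over all genes tested.

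Most genes of fatty acid oxidation and ketogenesis rose. Of 28 members, 22 were higher in DR-AL than in DR, 2 were lower and 4 were not called, with a median of 0.87, beside 17.1% of all genes tested called higher. 24 of the members had been lower in DR than in AL, beside 10.2% of all genes tested. In DR-AL against AL 19 were not called, beside 12026 of all 17407 genes tested, a near share. Cpt1a, the gate of fatty acids into mitochondria, had 321 CPM in DR, 742 in DR-AL and 699 in AL, and returned to within 10% of AL, at 106%. Of the list, 7 members, among them Cyp4a14, Ehhadh, Pdk4 and Fgf21, were called above AL, beside 15.0% of all genes tested. Cyp4a14, a fatty acid ω-hydroxylase, had 1077 CPM in DR, 9471 in DR-AL and 4313 in AL, 8.79-fold higher in DR-AL than in DR (log2 fold change 3.14 (3.12 to 3.16)), and Ehhadh, the peroxisomal bifunctional enzyme, had 292 CPM in DR, 1764 in DR-AL and 809 in AL. Pdk4, which shuts off pyruvate oxidation, had 4.64 CPM in DR, 45.7 in DR-AL and 12.7 in AL, and Fgf21, the hormone the fasting liver releases, had 1.61 CPM in DR, 19.4 in DR-AL and 2.80 in AL. Pdk4 and Fgf21 were at 358% and 693% of AL. Vnn1, Cyp4a10 and Plin2 had log2 fold changes of 2.40, 2.33 and 2.06, and Vnn1 stood at 101% of AL. Ppara itself was higher by a log2 fold change of 0.34, with 231 CPM in DR, 293 in DR-AL and 350.2 in AL, and its coactivator Ppargc1a went the other way, with 19.8 CPM in DR, 13.9 in DR-AL and 11.9 in AL. Igfbp1, a gene that insulin lowers, had 25.8 CPM in DR, 248 in DR-AL and 113 in AL, a log2 fold change of 3.26 (3.14 to 3.39).

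**Figure D3:**
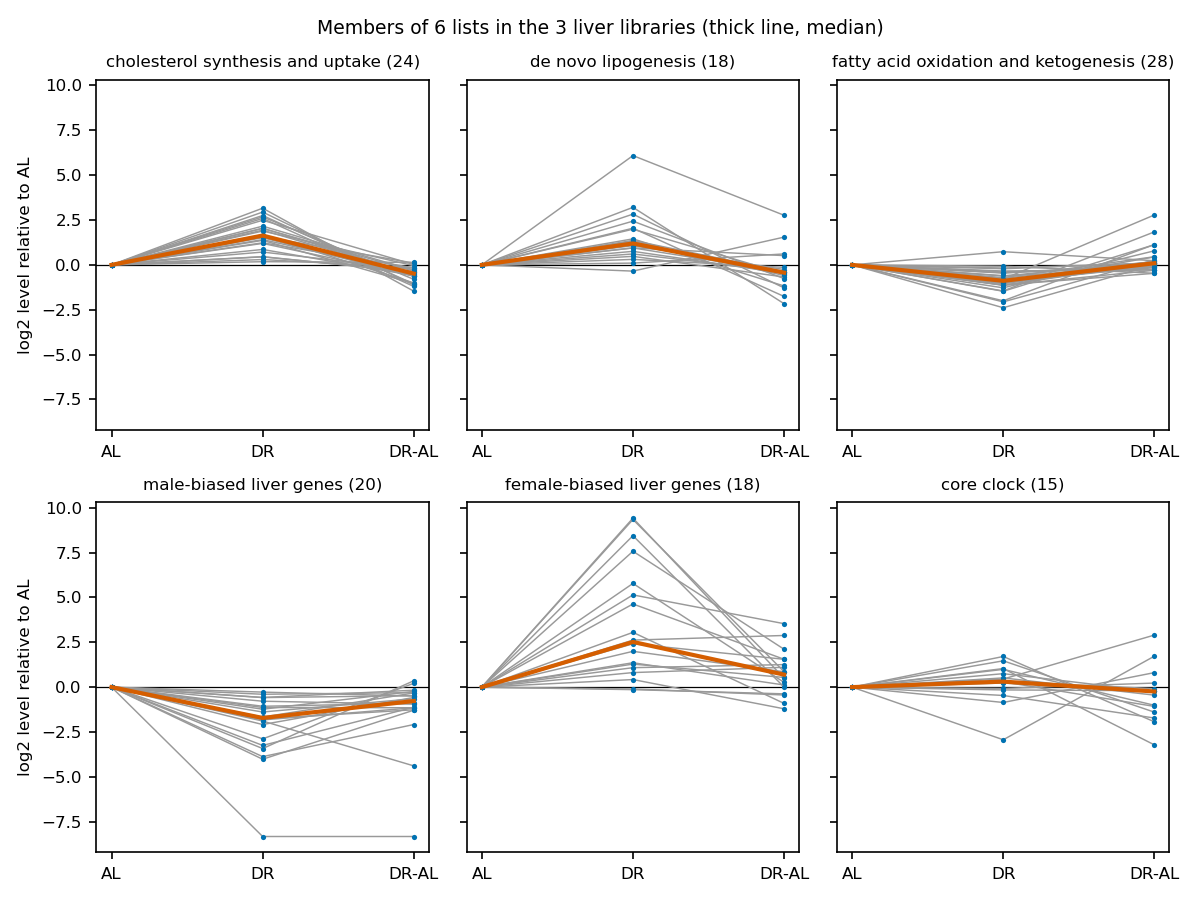
Level of each member relative to the AL liver library (vertical axis, log2 of scaled counts plus 0.5) in AL, DR and DR-AL for 6 lists, with members as grey lines and the median as a thick line. The median of the cholesterol list rises to 1.63 in DR and falls to -0.49 in DR-AL, and that of the oxidation list falls to -0.89 and returns to 0.09.

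All mice were male, and in the DR library many genes normally higher in female liver were high and many genes normally higher in male liver were low. Most female-biased genes fell again in DR-AL. Of 18 female-biased genes with counts, 13 were lower in DR-AL than in DR and none was higher, beside 23.8% and 17.1% of all genes tested, with a median of -1.42. Cyp2b9, a P450 of female liver, had 4551 counts in DR, 10 in DR-AL and 7 in AL (log2 fold change -8.92 (-10.06 to -8.12)). Cyp2b13 had 160 counts in DR, 0 in DR-AL and 0 in AL, at least 59.8-fold lower in DR-AL when a count of 0 is set to 3 counts. These genes were almost silent in AL and DR-AL and high in DR alone. Cyp2a4, a steroid hydroxylase, and Sult3a1, a sulfotransferase, had 511 counts in DR, 12 in DR-AL and 10 in AL for Cyp2a4 and 256 counts in DR, 6 in DR-AL and 1 in AL for Sult3a1. Cyp2a4 and Cyp2b genes have near-identical copies, so counts may be divided among them. Cux2, a female-biased repressor of male genes, had 20.7 CPM in DR, 1.31 in DR-AL and 2.48 in AL. Bcl6, the male-biased repressor in the growth hormone list, also was higher in DR, with 68.0 CPM in DR, 24.4 in DR-AL and 16.7 in AL. Cyp17a1, a steroid hydroxylase and lyase, was not called between DR and DR-AL and stayed above AL, with 61.6 CPM in DR, 73.6 in DR-AL and 9.99 in AL.

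Most male-biased genes rose again in DR-AL, many to a level below AL. Of 20 members, 19 had been lower in DR than in AL, beside 10.2% of all genes tested. In DR-AL against DR, 12 were higher, beside 17.1% of all genes tested, 1 was lower and 7 were not called. Against AL 15 were still called lower, beside 15.9% of all genes tested. Mup20 (darcin), a pheromone protein of male urine, had 884 CPM in DR, 12145 in DR-AL and 9490.0 in AL (log2 fold change 3.78 (3.76 to 3.80)), and Elovl3, a fatty acid elongase, had 18.1 CPM in DR, 155 in DR-AL and 133 in AL, both at or above AL in DR-AL. Cyp4a12a, an arachidonate ω-hydroxylase, had 40.2 CPM in DR, 176 in DR-AL and 382 in AL and Selenbp2 had 10.8 CPM in DR, 37.4 in DR-AL and 159 in AL, which left them at 45.9% and 23.6% of AL. Cyp4a12a and Cyp4a12b are close copies, and both had the same course, with a log2 fold change of 2.73 for Cyp4a12b. C6, a complement component, and Cyp7b1, an oxysterol hydroxylase, reached 67.1% and 45.0% of AL. Nudt7, a peroxisomal CoA hydrolase, Egfr, the epidermal growth factor receptor, and Ugt2b1, a glucuronosyltransferase, were not called between DR and DR-AL and stood at 45.1%, 51.8% and 53.6% of AL. By FPKM, Egfr had a log2 fold change of 0.50 in DR-AL against DR, compared with -0.16 by counts. Hsd3b5, a male steroid dehydrogenase, fell further, with 22.4 CPM in DR, 3.93 in DR-AL and 82.9 in AL. Moxd1 had 0 counts in DR, 0 in DR-AL and 167 in AL. Whether the 0 of Moxd1 in DR and DR-AL is a missing value was not tested. Many other major urinary protein loci are near-identical copies that were at 0 in some libraries and counted in others. The Mup17 locus had 37 counts in DR, 14665 in DR-AL and 0 in AL, a locus named Mup10 among others had 6476 counts in DR, 0 in DR-AL and 0 in AL, and a locus named Mup15 among others had 1012 counts in DR, 0 in DR-AL and 0 in AL, and the division of reads among these copies is uncertain. Ghr, the growth hormone receptor, and Igf1 were lower in DR-AL than in DR, with 511 CPM in DR, 339 in DR-AL and 558 in AL for Ghr and 825 CPM in DR, 580.2 in DR-AL and 821 in AL for Igf1.

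Clock genes changed in both directions, with period genes and Ciart lower and Arntl, Clock and Npas2 higher in DR-AL. In the core clock list 10 of 15 members were lower in DR-AL than in DR, 3 were higher and 2 were not called, beside 23.8% of all genes tested called lower and 17.1% called higher. Per3, a period gene, had 57.4 CPM in DR, 2.99 in DR-AL and 28.0 in AL, 19.2-fold lower in DR-AL (log2 fold change -4.25 (-4.62 to -3.92)), and Per2 had 65.9 CPM in DR, 9.05 in DR-AL and 23.8 in AL. Ciart, a repressor of the clock, had 48.7 CPM in DR, 3.89 in DR-AL and 14.9 in AL, and Per1 had 69.4 CPM in DR, 17.3 in DR-AL and 35.0 in AL. The activators had the opposite order, with 0.322 CPM in DR, 8.64 in DR-AL and 2.60 in AL for Arntl, which encodes BMAL1, and 17.0 CPM in DR, 53.9 in DR-AL and 30.8 in AL for Clock. Npas2, the partner that can replace Clock, rose from a low level, with 5 counts in DR, 33 in DR-AL and 4 in AL. Cry2, a repressor of the clock, fell to a level below AL, with 35.3 CPM in DR, 13.7 in DR-AL and 28.8 in AL, while Nr1d1 (REV-ERBα) had 127 CPM in DR, 63.8 in DR-AL and 75.4 in AL. The DR-AL liver did not stop at the AL level. 7 core clock genes were called lower than AL and 3 higher, beside 15.9% and 15.0% of all genes tested. Per3 stood at 10.7% and Arntl at 333% of AL. The clock time at which the mice were killed is not given in the sources used here, and its part was not tested.

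The factors through which the clock acts on other genes moved with it. Of 6 members, 5 were lower in DR-AL and 1 was higher, beside 23.8% and 17.1% of all genes tested, with a median of -1.64. Dbp, a D-box activator, had 127 CPM in DR, 16.8 in DR-AL and 57.5 in AL, a log2 fold change of -2.91 (-3.06 to -2.76). Tef and Hlf, its relatives, had 235 CPM in DR, 79.5 in DR-AL and 172 in AL for Tef and 83.9 CPM in DR, 43.2 in DR-AL and 71.4 in AL for Hlf. Nfil3, the repressor that binds the same D-box, had 5.51 CPM in DR, 24.1 in DR-AL and 18.2 in AL, so activator and repressor of one element moved in opposite directions. Bhlhe40 and Bhlhe41, the DEC repressors, had log2 fold changes of -1.79 and -1.71. Usp2, a deubiquitinase of the clock loop named after its values were seen, had 92.3 CPM in DR, 11.5 in DR-AL and 51.2 in AL. The promoter windows of Dbp, chr7:45704997-45705296 on the plus strand, and of Nfil3, chr13:52980990-52981289 on the minus strand (GRCm38.p6), are shown as the members with the largest changes of this list. Capitals mark CCAAT boxes (CCAAT or ATTGG) and the ROR element half-site (AGGTCA or TGACCT).
Dbp: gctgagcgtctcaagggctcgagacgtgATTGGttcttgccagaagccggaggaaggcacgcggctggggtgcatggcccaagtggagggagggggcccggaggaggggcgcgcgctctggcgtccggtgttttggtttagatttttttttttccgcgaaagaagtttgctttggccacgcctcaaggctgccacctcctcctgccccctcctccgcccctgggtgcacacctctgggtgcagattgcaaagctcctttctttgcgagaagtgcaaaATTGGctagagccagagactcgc
Nfil3: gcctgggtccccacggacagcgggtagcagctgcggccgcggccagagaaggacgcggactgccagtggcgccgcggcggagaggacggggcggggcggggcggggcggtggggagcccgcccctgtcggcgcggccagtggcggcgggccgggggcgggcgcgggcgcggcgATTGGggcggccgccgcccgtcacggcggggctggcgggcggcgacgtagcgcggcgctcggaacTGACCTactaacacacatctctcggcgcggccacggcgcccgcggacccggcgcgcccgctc
Neither window held the E-box CACGTG or the D-box TTATGTAA, which says only that these letters are not in these 300 bases. The E-box was found in 2 of the 5 list members with a promoter in the table, 40.0%, against 8.09% of all genes. The ROR half-site was found in 1 of the 5 genes, 20.0%, and in 18.1% of all genes in the table.

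Genes of the DR-AL liver that exceeded both AL and DR included the largest increases. Apoa4, an apolipoprotein of chylomicrons, had 254 CPM in DR, 5443 in DR-AL and 324 in AL, 21.4-fold higher in DR-AL than in DR (log2 fold change 4.42 (4.38 to 4.46)). Cidec, which fuses lipid droplets, had 1.93 CPM in DR, 74.5 in DR-AL and 10.1 in AL, and G0s2, an inhibitor of lipolysis, had 25.1 CPM in DR, 410.2 in DR-AL and 124 in AL. Cdkn1a (p21), a cell cycle inhibitor, had 1.01 CPM in DR, 25.3 in DR-AL and 1.99 in AL, and Insig2, which holds SREBP in the endoplasmic reticulum and was named after its values were seen, had 72.8 CPM in DR, 599 in DR-AL and 176 in AL. In all 5 genes DR was the lowest library and DR-AL the highest. Lepr, the leptin receptor, also named after its values were seen, had 7.95 CPM in DR, 52.5 in DR-AL and 8.28 in AL. Cgref1, Lamb3 and Tff3, of the 12 genes with the largest increase, had log2 fold changes of 4.87, 3.88 and 3.70. A locus that carries both Ccr10 and Cntnap1 rose as well, and its reads cannot be given to either gene. Gm15441 had 4 counts in DR, 308 in DR-AL and 247 in AL and Clstn3, a calsyntenin, had 4.13 CPM in DR, 44.7 in DR-AL and 32.4 in AL. Cyp8b1, which makes cholic acid, had 153 CPM in DR, 1134 in DR-AL and 1018 in AL and came back to 111% of AL, while Cyp7a1, the rate-limiting enzyme of bile acid synthesis, was not called, with 274 CPM in DR, 269.9 in DR-AL and 287 in AL. Serpina1e, a protease inhibitor with close copies, had 352 CPM in DR, 4447 in DR-AL and 5869 in AL, Chrna2, a nicotinic receptor subunit, had 1.70 CPM in DR, 21.6 in DR-AL and 12.3 in AL, and Cyp4a31, a P450 of the Cyp4a cluster, had 7.07 CPM in DR, 56.3 in DR-AL and 77.8 in AL.

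**Figure D4:**
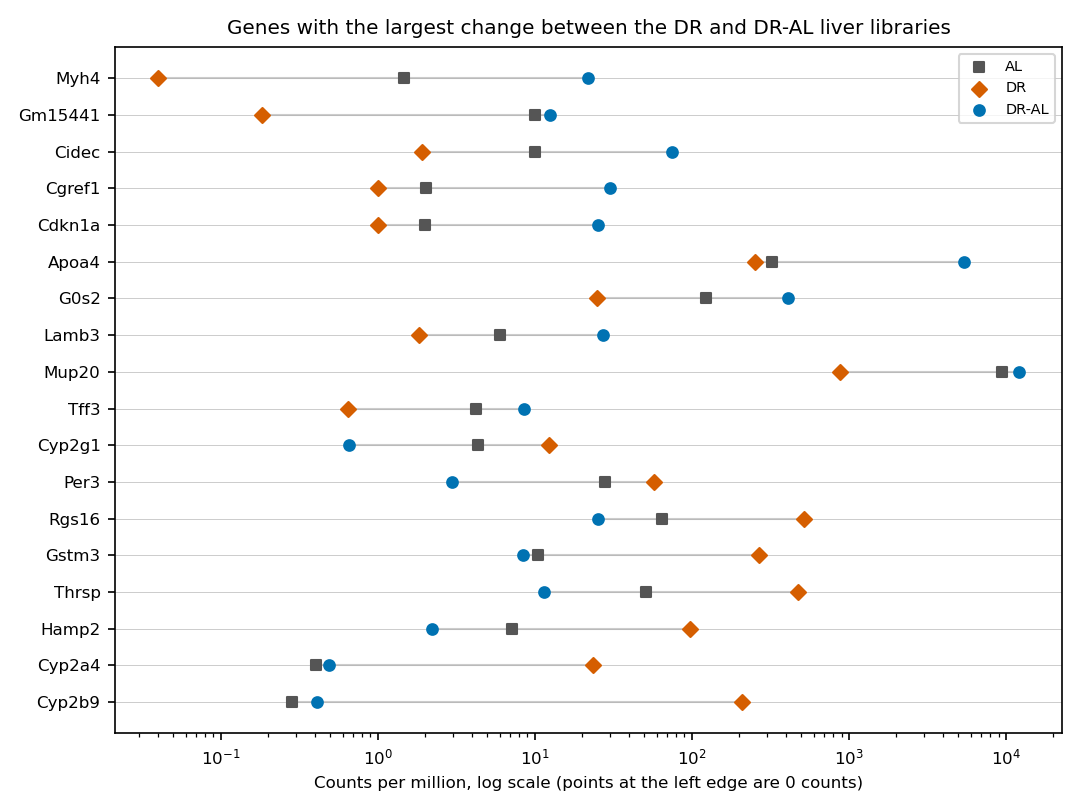
CPM (horizontal axis, log scale) in the AL, DR and DR-AL liver libraries for named genes with the largest change between DR and DR-AL, 3 major urinary protein loci left out. Points at the left edge are 0 counts, as for Myh4 in DR. The lower rows are genes high in DR alone, such as Cyp2b9 and Gstm3, and the upper rows are genes highest in DR-AL, such as Apoa4 and Cidec.

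Among the largest decreases, Gstm3, a glutathione transferase, had 270.0 CPM in DR, 8.44 in DR-AL and 10.5 in AL, and Hamp2, a hepcidin copy, had 97.1 CPM in DR, 2.21 in DR-AL and 7.15 in AL. Rgs16, a brake on G protein signalling, had 521 CPM in DR, 25.4 in DR-AL and 65.1 in AL. Cyp2g1, a P450, had 12.3 CPM in DR, 0.655 in DR-AL and 4.34 in AL. Cytochromes P450 of families 1 to 3, which clear drugs and steroids, were lower in DR-AL at 30 of 50 loci and higher at 4, beside 23.8% and 17.1% of all genes tested. Cyp2a5, a coumarin hydroxylase, had 3335 CPM in DR, 394 in DR-AL and 1378 in AL, Cyp2c70 had 385 CPM in DR, 48.0 in DR-AL and 131 in AL and Cyp1a2, a pericentral P450, had 1165 CPM in DR, 215 in DR-AL and 564 in AL. For these 3 genes DR-AL was below AL as well as below DR. Of 11 pericentral hepatocyte markers 7 were lower in DR-AL than DR and 2 higher, beside the same 23.8% and 17.1%, with a summed level of 16665 CPM in DR, 11934 in DR-AL and 20116 in AL, and of 11 periportal markers 3 were lower and 3 higher, with 16908 CPM in DR, 16797 in DR-AL and 16877 in AL. Car3, carbonic anhydrase 3, fell from a level shared by AL and DR, with 2765 CPM in DR, 515 in DR-AL and 2238 in AL, where DR and AL were not called different, and was named after its values were seen.

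Cytosolic heat shock, proteasome and interferon genes were more often higher than lower in DR-AL. In the cytosolic heat shock list 10 of 20 members were higher in DR-AL and 3 lower, beside 17.1% of all genes tested called higher and 23.8% called lower, and these shares apply to the proteasome and interferon lists too. Of 23 endoplasmic reticulum chaperones, 2 were higher, 4 lower and 17 not called. Hspa1b, an inducible HSP70 with a near-identical copy, Hspa1a, had 10.2 CPM in DR, 57.0 in DR-AL and 10.8 in AL, Hspb1, a small heat shock protein, had 17.5 CPM in DR, 47.9 in DR-AL and 19.4 in AL and Hsp90aa1, the inducible HSP90, had 151 CPM in DR, 339 in DR-AL and 170.0 in AL, all highest in DR-AL. The regulator Hsf1 went the other way, with 19.4 CPM in DR, 10.6 in DR-AL and 12.7 in AL. The proteasome had 20 of 39 subunits higher and 3 lower, with a median of 0.33. Interferon-stimulated genes were higher at 20 of 33 members and lower at 2. Rsad2 (viperin) had 67 counts in DR, 504 in DR-AL and 230 in AL, Cxcl10, a chemokine, had 25 counts in DR, 106 in DR-AL and 82 in AL and Ifit1 had 91 counts in DR, 337 in DR-AL and 281 in AL. Of 22 acute phase proteins, 8 were higher in DR-AL than in DR and 6 lower, beside the same 17.1% and 23.8%, and 8 were not called. Saa1 and Saa2, members with close copies, were low in DR and came back in part, with 6.89 CPM in DR, 34.2 in DR-AL and 113 in AL for Saa1 and 2.57 CPM in DR, 13.8 in DR-AL and 45.5 in AL for Saa2. Macrophage markers were higher at 2, lower at 1 and not called at 9 of 12, with a summed level of 231 CPM in DR, 238 in DR-AL and 281 in AL. T and NK cell markers totalled 2.89 CPM in DR, 4.01 in DR-AL and 3.65 in AL over 7 genes.

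Amino acid breakdown was divided, with 10 of 29 members higher in DR-AL than in DR and 11 lower, beside 17.1% and 23.8% of all genes tested. Cth, which makes cysteine, had 473 CPM in DR, 1563 in DR-AL and 677 in AL and Arg1, the urea cycle arginase, had 2099 CPM in DR, 3572 in DR-AL and 1696 in AL. Prodh, the proline dehydrogenase, had 289.8 CPM in DR, 84.4 in DR-AL and 202 in AL and Uroc1, a histidine enzyme, had 476 CPM in DR, 164 in DR-AL and 320.3 in AL. Tat and Cps1, markers of amino acid use and of the urea cycle, were not called. Cytosolic ribosomal proteins were higher in DR than AL at 44 of 81 loci, beside 17.8% of all genes tested. In DR-AL against DR 25 were lower and 11 higher, shares near those of all genes tested, 23.8% and 17.1%. Of 28 cell division genes, 16 were not called and 10 were lower in DR-AL, beside 23.8% of all genes tested, among them Ccnd1 (cyclin D1) with 39.1 CPM in DR, 17.3 in DR-AL and 15.1 in AL.

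Skeletal muscle markers did not return to AL. Acta1 (skeletal actin) had 1326 counts in DR, 1847 in DR-AL and 170 in AL and Ckm (muscle creatine kinase) had 428 counts in DR, 973 in DR-AL and 89 in AL. Myh4, a fast muscle myosin, had 0 counts in DR, 535 in DR-AL and 36 in AL, at least 159-fold higher in DR-AL when a count of 0 is set to 3 counts. It was the 1 muscle marker at 0 in DR. In the liver 12 loci were at 0 in 1 library and at 100 or more in another. Whether the 0 of Myh4 is a missing value was not tested, so its fold is uncertain. All 6 markers were called higher in DR-AL than in AL, beside 15.0% of all genes tested. Each male germ cell marker had 13 counts or fewer in each library. All 5 were at 0 counts in AL and were called higher in DR-AL than in AL, from these few counts.

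The liver can be set beside the other tissues of the series by the same rule. In either direction, 40.9% of genes tested were called in the liver, 52.1% in fat, 14.5% in colon, 9.60% in hypothalamus and 4.90% in hippocampus, each from 1 library a diet with its own depth. Dbp was lower in DR-AL than DR in all 5 tissues, with log2 fold changes of -2.91 in liver, -3.01 in fat, -1.66 in colon, -0.86 in hypothalamus and -0.73 in hippocampus, and Ciart was lower in all 5 as well, from -3.64 in liver to -0.93 in hippocampus. Per3 had -4.25 in liver, -1.55 in fat, -0.45 in colon, -0.54 in hypothalamus and -0.07 in hippocampus. The cholesterol list had medians of -2.27 in liver, -0.73 in fat, -0.66 in colon, -0.17 in hypothalamus and -0.28 in hippocampus. The lipogenesis list had its lowest median in fat, -3.03, then liver, -1.54, and lay near 0 elsewhere, from -0.08 to 0.01. Fatty acid oxidation had medians of 0.87 in liver, 0.44 in colon, -0.56 in fat, -0.04 in hypothalamus and 0.14 in hippocampus. Tissues of 1 diet came from 1 group of mice and may not be independent, and the differences between tissues were not tested.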

How the data were processed

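RNA-seq counts per locus were deposited by the authors, 1 column per library, with FPKM values beside them. Per the study's methods, RNA of 5 mice was pooled per tissue and diet. The methods name mm10 and quantitation with DESeq in the Strand software, while the submitters' processing notes name mm9 and DESeq2. No alignment was repeated here. Loci without a gene name were left out, 677 of the 23589 named loci carried more than 1 name, and no column was left unused for want of a sample. Counts were divided by the library total over named loci. As in the study's methods, libraries were compared with a Z test on the square root scale, with Benjamini-Hochberg adjustment at 0.05 and a fold of at least 1.25. The test was also run on simulated Poisson counts, the spread it assumes, which held no variation between mice or pools. Scd1 was left out of tests, totals and lists, a choice made after its values were seen. A count of 0 was set to 3 counts for bounds. Ratio intervals were exact (Clopper-Pearson, 95%) and cover counting error only, since reads without molecular identifiers are not independent molecules.

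The members and the 46 gene lists were chosen with earlier results of these data known. Named genes were the 12 higher and 12 lower in DR-AL than DR with the largest log2 fold change at a mean of at least 100 counts, the 8 each way with the largest reversal, and for each list up to 8 members with the largest change and its first 3 entries. Other genes are marked as named after their values were seen, or are named as checks of the libraries. Promoters were those of the 2 lists with at least 5 members and the largest absolute median, family, marker and secreted protein lists apart, 2 members each. For the cholesterol list these were Mvd and Nsdhl. Some genes that the rule names are not reported here. Alternatives used DESeq2 1.42.0 size factors, edgeR 4.0.16 TMM factors and exact tests, other filters, and FPKM with pseudocounts of 0.1 and 1.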

Additional observations from a re-analysis of the deposited data

How the results depend on the processing

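No paired analysis was possible because each diet had 1 pooled liver library. The counts of called genes, 7111 for DR-AL against DR, 4873 for DR against AL, 5381 for DR-AL against AL and 3203 changed by DR and changed back, stayed within 1.5 times under DESeq2 size factors, TMM factors, totals without the 10 most abundant genes, a mean of at least 10 counts and thinning to the smallest total. With a fold of at least 2 they were 2589, 1454, 1463 and 766. Under edgeR's exact test with a coefficient of variation of 0.1 they were 3953, 1528, 1849 and 1077, and with a dispersion estimated without regard to diet they were 158, 73, 76 and 33. The last setting counts differences between diets as spread. Of 132 named genes, 128 kept the direction of DR-AL against DR under all 5 scalings and pseudocounts tried, the exceptions being Cyp7a1, Cyp17a1, Egfr and Nudt7, none of them called, and of 31 lists 27 kept the sign of their median under these and a mean of at least 10 counts. The lists that did not were amino acid breakdown, bile acid genes, complement and coagulation and the respiratory chain, each with a median near 0. The pooled libraries, 1 a diet, limit these results, and the totals, which differ little between diets, were not varied below the smallest. Leaving out a replicate was not possible with 1 library a diet.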

Other observations

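Markers of liver sinusoids, not described above, moved in unlike ways between DR and DR-AL. Lyve1, a hyaluronan receptor, had 101 counts in DR, 474 in DR-AL and 85 in AL, while Stab1 and Stab2, scavenger receptors of the same cells, had 1060 counts in DR, 391 in DR-AL and 650 in AL for Stab1 and 777 counts in DR, 315 in DR-AL and 636 in AL for Stab2. Over the 10 endothelial markers, 4 were lower in DR-AL and 1 was higher, beside 23.8% and 17.1% of all genes tested. The other 5 were not called. Marco, a macrophage scavenger receptor, had 548 counts in DR, 181 in DR-AL and 192 in AL, and Adgre1 (F4/80) had 80 counts in DR, 187 in DR-AL and 142 in AL.

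Collagens were lower in DR-AL than in DR at 16 of 40 loci and higher at 2, beside 23.8% and 17.1% of all genes tested, and were not called at 22, with a median of -0.49. Col27a1 had 912 counts in DR, 161 in DR-AL and 655 in AL. Col5a3 had 736 counts in DR, 250 in DR-AL and 609 in AL. Col1a2 had 159 counts in DR, 128 in DR-AL and 189 in AL. Col3a1 had 340 counts in DR, 392 in DR-AL and 330 in AL, a log2 fold change of 0.04 in DR-AL against DR.

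Among genes often used to scale expression, Actb had 536 CPM in DR, 411 in DR-AL and 407 in AL, and its call between DR and DR-AL was lost with DESeq2 size factors, where its log2 fold change was -0.28 in place of -0.38. Gapdh had 1639 CPM in DR, 995 in DR-AL and 1023 in AL and Hprt had 57.7 CPM in DR, 105 in DR-AL and 81.3 in AL. Ttr, the transthyretin gene and a hepatocyte marker, had 10879 CPM in DR, 4656 in DR-AL and 5925 in AL.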
